A study of Mus musculus with 6 samples.

Results

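The 10 genes followed here belong to the NF-κB system: the 5 subunit genes Nfkb1, Nfkb2, Rel, Rela and Relb, the 4 inhibitor genes Nfkbia, Nfkbib, Nfkbie and Tnfaip3, and Ltb, which encodes lymphotoxin beta. They were chosen by name, from the gene symbols matched to the deposited Ensembl IDs, and are 10 of 57010 genes in the table. Earlier results of these data were known at that choice, so comparisons of these genes with all tested genes are descriptive. All 10 were among the 12862 genes tested, which had a mean of at least 1 TPM (transcript abundance scaled by gene length and by each library's total). The cells were Ba/F3, a mouse haematopoietic line widely used to study oncogenic kinases. In 3 libraries the cells stably expressed the fusion TPR-FGFR1 after lentiviral infection and 6 days of puromycin at 5 µg/ml. In the other 3 libraries they carried an empty vector and had the genotype label WT. The fusion joins TPR, a nuclear pore protein, to the tyrosine kinase FGFR1, a receptor for fibroblast growth factors. The labels give no puromycin selection for the empty vector cells, no medium or interleukin-3, no species of the fusion and no separate cultures for the replicates. Each p-value thus reflects library-to-library spread alone, possibly of technical origin.

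NF-κB is a family of dimeric transcription factors. Rela, Rel and Relb encode subunits that activate transcription, while Nfkb1 and Nfkb2 encode the precursors p105 and p100, which are processed to the DNA-binding subunits p50 and p52. Inhibitors of the IκB family hold the dimers in the cytoplasm until a kinase complex marks them for degradation, and dimers released in this way bind κB sites in DNA. Several inhibitors, Nfkb2, Rel and lymphotoxin beta are themselves textbook NF-κB targets.

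Transcripts of the mouse Fgfr1 gene stood at 0.7, 0.58 and 1.26 TPM in TPR-FGFR1 replicates 1, 2 and 3, against 0.02 to 0.05 TPM in the empty vector libraries. Whether these values measure the fusion was not tested. The labels call the cells B lymphocytes, but Rag1 was listed at 0 in all 6 libraries, and of 10 B lineage markers only Cd79b was abundant enough to be tested. The summed level of those 10 markers was 4.77 to 7.79 TPM in TPR-FGFR1 cells and 6.46 to 7.31 TPM in empty vector cells. The 8 haematopoietic markers summed to 480 to 560 TPM in TPR-FGFR1 cells and 631 to 650 TPM in empty vector cells, with Kit listed at 0. Of the 6 tested, Lyl1 (log2 fold change -2.02, limma adjusted p = 0.0117) and the interleukin-3 receptor gene Il3ra (-1.32, 0.0259) fell and none rose. Of all tested genes, 10% were lower and 10.2% higher. Csf2rb (-0.57) and Spi1 (-0.54) did not pass, nor did Ptprc (0.24) and Tal1 (0.13), both higher in every TPR-FGFR1 library. The median log2 fold change of the 6 was -0.55. After the correction described below the median was -0.28, with Lyl1 at -1.46, Il3ra at -0.84 and Csf2rb at -0.42. These 3 then passed as falls and none rose, with Csf2rb at a limma adjusted p of 0.0327. Of all genes, 16.1% were lower and 13.3% higher after the correction. The part of these markers in the results was not tested. TPR-FGFR1 replicates 1 and 2 stood apart in base composition. With tested genes ranked into 5 bins of GC content, the median log2 deviation from the empty vector mean in the richest bin minus that in the poorest bin was -0.69 and -0.86 in them. The same difference was -0.07 in TPR-FGFR1 replicate 3 and -0.05 to 0.05 in the empty vector libraries. Results are therefore also given after a correction for GC content and gene length. They are given without TPR-FGFR1 replicate 3 too, which leaves only replicates 1 and 2 in that group. In that fit, if uncorrected, the group difference and the difference in base composition cannot be told apart. In bulk RNA, fewer cells of a type and less RNA per cell cannot be told apart.

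The DNA before the start sites is shown first because κB sites are the letters through which these genes can respond to their own products. The RefSeq promoter table (GRCm38.p6) held 8 of the 10 genes, all but Nfkb1 and Relb. The κB consensus, a motif of 10 bases searched on both strands, was found in the 250 bases upstream of 6 of these 8 genes. It was found upstream of 2225 of 27025 genes in the table (8.23%). Each line gives a stretch before the first listed start site, 5′ to 3′ on the gene's strand. The consensus match is in capitals, and overlapping matches run together. The stretches lie outside annotated exons, except that the shorter Nfkb2 stretch was not checked for this. Rela and Nfkbib had no match.
Ltb, chr17:35194257-35194438, plus strand: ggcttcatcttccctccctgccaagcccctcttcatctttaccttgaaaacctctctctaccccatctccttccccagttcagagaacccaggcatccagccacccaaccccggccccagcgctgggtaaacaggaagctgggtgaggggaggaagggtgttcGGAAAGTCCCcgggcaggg
Nfkb2, chr19:46304688-46304717, plus strand: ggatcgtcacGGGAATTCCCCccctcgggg
Rel, chr11:23771026-23771085, minus strand: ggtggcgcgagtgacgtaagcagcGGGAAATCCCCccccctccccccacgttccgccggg
Nfkbia, chr12:55492648-55492707, minus strand: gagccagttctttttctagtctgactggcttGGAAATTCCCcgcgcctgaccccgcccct
Nfkbie, chr17:45555569-45555628, plus strand: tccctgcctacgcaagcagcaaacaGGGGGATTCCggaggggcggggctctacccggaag
Tnfaip3, chr10:19015411-19015470, minus strand: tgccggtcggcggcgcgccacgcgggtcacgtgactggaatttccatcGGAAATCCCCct
Rela, chr19:5637423-5637482, plus strand: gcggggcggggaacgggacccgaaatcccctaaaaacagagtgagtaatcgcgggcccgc
Nfkbib, chr7:28766645-28766704, minus strand: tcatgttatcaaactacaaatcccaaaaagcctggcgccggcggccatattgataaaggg

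The match before Ltb lay at -87 to -78 relative to the start and reads GGGACTTTCC on the opposite strand. The same letters occurred at -225 to -216 relative to the third listed start of Nfkb2. The match before Nfkbia lay at -29 to -20, and matches before Tnfaip3 lay at -125 to -116 and at -12 to -3. Nfkb2 had a further match at -11 to -2 before its first start. A match describes the letters only, and binding was not measured.

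Of the 10 genes, 3 fell in TPR-FGFR1 cells and none rose (limma on log2(TPM + 1), adjusted p under 0.05). The 3 were Ltb, the inhibitor gene Nfkbib and the subunit gene Nfkb1. Among all tested genes, 10% were lower and 10.2% higher by the same rule. At an unadjusted p under 0.05, 4 of the 10 genes were lower and 0 higher, against 19.3% lower and 19.9% higher of all tested genes. The values of the groups did not overlap for 4 of the 10 genes, the 3 named and Rela, against 43.4% of all tested genes. The median log2 fold change was -0.26 over the 10 genes and 0.02 over all tested genes. After the correction the same 3 genes fell and none rose, against a background of 16.1% lower and 13.3% higher, and the median was -0.07 over the 10 genes and -0.01 over all tested genes. Without TPR-FGFR1 replicate 3, 6 of the 10 fell and 1 rose, against 23.4% lower and 26.3% higher. Without TPR-FGFR1 replicate 2 only Ltb fell, where 3.45% of all genes were lower. None of the 10 passed without TPR-FGFR1 replicate 1 (1.33% of all genes lower) or without empty vector replicate 1 (1.65%), 2 (0.848%) or 3 (1.04%).

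**Figure D1:**
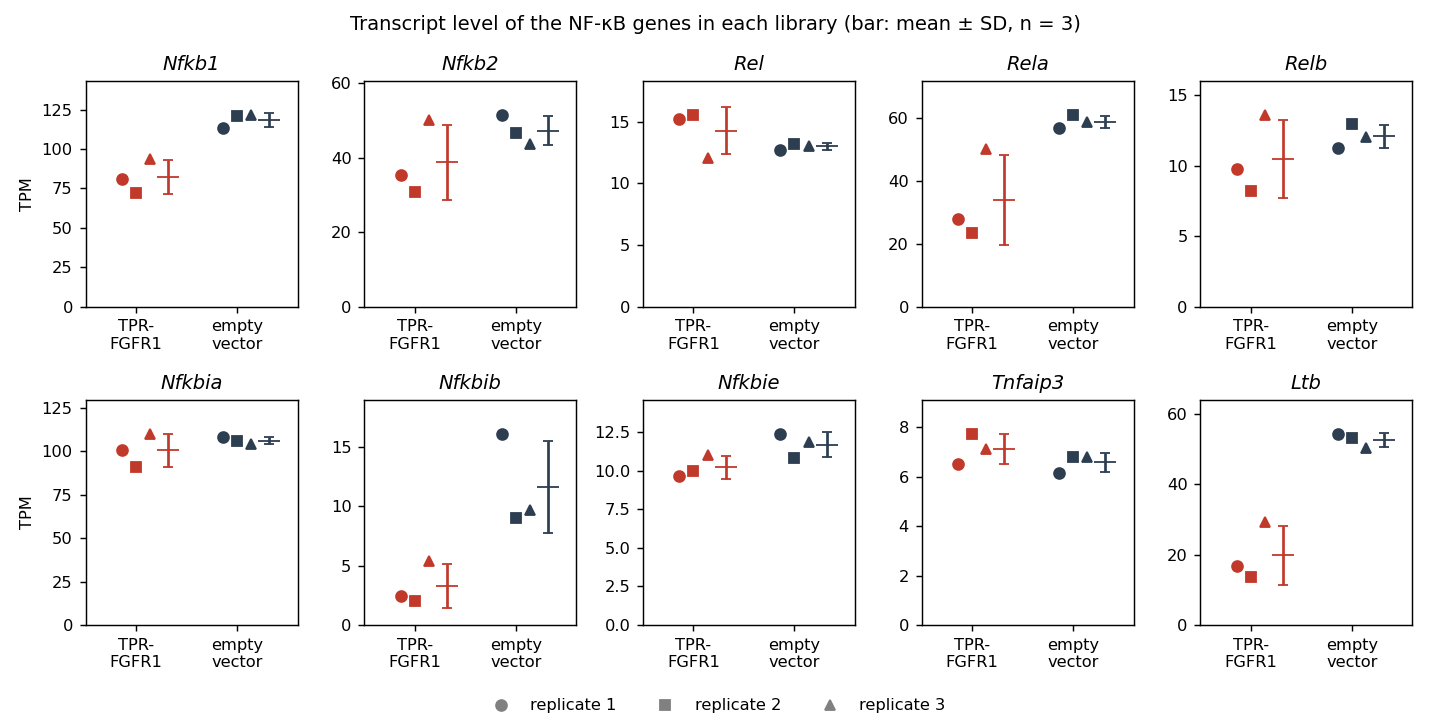
TPM of each of the 10 genes in every library, with TPR-FGFR1 libraries left of empty vector libraries; symbols mark the replicates and bars the mean ± SD of each group (n = 3). The groups are apart for Ltb, Nfkbib, Nfkb1 and Rela and overlap for the other 6 genes.

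Ltb encodes a membrane ligand of the TNF family that pairs with lymphotoxin alpha and signals through the receptor encoded by Ltbr. It stood at 16.6, 13.6 and 29.4 TPM in the TPR-FGFR1 libraries, against 54.2, 53.1 and 50.3 TPM in the empty vector libraries. The groups did not overlap, and TPR-FGFR1 replicate 3 was the closest to the empty vector values. The means were 19.8 ± 8.37 TPM in TPR-FGFR1 cells and 52.6 ± 2.00 TPM in empty vector cells (SD, n = 3 each). This was a log2 fold change of -1.43 with an SE of 0.251 (limma adjusted p = 0.0146), and the two-sided exact permutation p was 0.1, the smallest that 3 against 3 libraries allow. Its longest transcript has a GC content of 61.0%, and after the correction the log2 fold change was -0.96 (limma adjusted p = 0.00317). The call held without TPR-FGFR1 replicate 2 (adjusted p = 0.0381) or 3 (0.000647) and was lost without TPR-FGFR1 replicate 1 (0.065) or empty vector replicate 1 (0.0629), 2 (0.0604) or 3 (0.0582).

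Nfkb1 was the most abundant subunit gene in every library. It had 81.1, 72.1 and 93.6 TPM in TPR-FGFR1 cells, against 113, 121 and 121 TPM in empty vector cells. Every TPR-FGFR1 value lay below every empty vector value. The mean was 82.3 ± 10.8 TPM in TPR-FGFR1 cells and 118 ± 4.65 TPM in empty vector cells (SD, n = 3 each), a ratio of 0.694. On the log2 scale Nfkb1 fell by 0.53 with an SE of 0.106 (limma adjusted p = 0.0201; exact permutation p = 0.1). At a GC content of 44.9% Nfkb1 was less GC-rich than Ltb and Nfkbib, and the corrected log2 fold change was -0.68 (limma adjusted p = 0.0185). The call held without TPR-FGFR1 replicate 3 (limma adjusted p = 0.00164) and was lost without any other library, with adjusted p between 0.0542 and 0.0851; with the replicate number as a block it was 0.0555.

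Rela encodes p65, the activating partner of p50 in the classical dimer. Its levels were 28.0, 23.6 and 50.3 TPM in TPR-FGFR1 cells, against 57.0, 61.0 and 58.8 TPM in empty vector cells. The groups did not overlap, but the TPR-FGFR1 libraries spread widely, with replicate 3 nearest to the controls. For Rela this was a log2 fold change of -0.85 (95% interval -1.45 to -0.25, limma adjusted p = 0.055), which did not pass. It passed without TPR-FGFR1 replicate 3, at -1.17 (limma adjusted p = 0.000745), and in 5 of the 22 alternatives in all, among them a filter at 5 TPM (0.0399) and a fit over protein-coding genes (0.0318). With a GC content of 59.4%, Rela had a corrected log2 fold change of -0.43 (limma adjusted p = 0.0578).

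The other subunit genes did not pass the test. Nfkb2, whose product p100 serves the pathway downstream of the lymphotoxin receptor, had 35.3, 30.7 and 50.1 TPM in TPR-FGFR1 cells and 51.3, 46.5 and 43.6 TPM in empty vector cells. Its log2 fold change was -0.31 (95% interval -0.72 to 0.11, limma adjusted p = 0.236), and the value turned to 0.11 after the correction. Relb encodes the usual partner of p52 and had 9.73, 8.19 and 13.6 TPM in TPR-FGFR1 cells, against 11.3, 12.9 and 12.01 TPM in empty vector cells. Both genes overlapped between the groups, with TPR-FGFR1 replicate 3 the highest of its group. The log2 fold change of Relb was -0.21 (limma adjusted p = 0.388), and 0.09 after the correction. Rel encodes c-Rel, a subunit best known from lymphocytes, and had 15.2, 15.5 and 12.1 TPM in TPR-FGFR1 cells against 12.7, 13.2 and 13.0 TPM in empty vector cells. Here TPR-FGFR1 replicate 3 was the lowest of the 6 libraries, whereas for the other subunits it was the highest of its group. The log2 fold change of Rel was 0.12 (95% interval -0.14 to 0.38, limma adjusted p = 0.455) and -0.09 after the correction. Without TPR-FGFR1 replicate 3 all of these passed, Nfkb2 at -0.50 and Relb at -0.39 as falls and Rel at 0.23 as a rise (limma adjusted p = 0.00786, 0.0215 and 0.0229). That uncorrected fit holds only the TPR-FGFR1 libraries that stood apart in base composition, so group and base composition cannot be told apart in it.

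**Figure D2:**
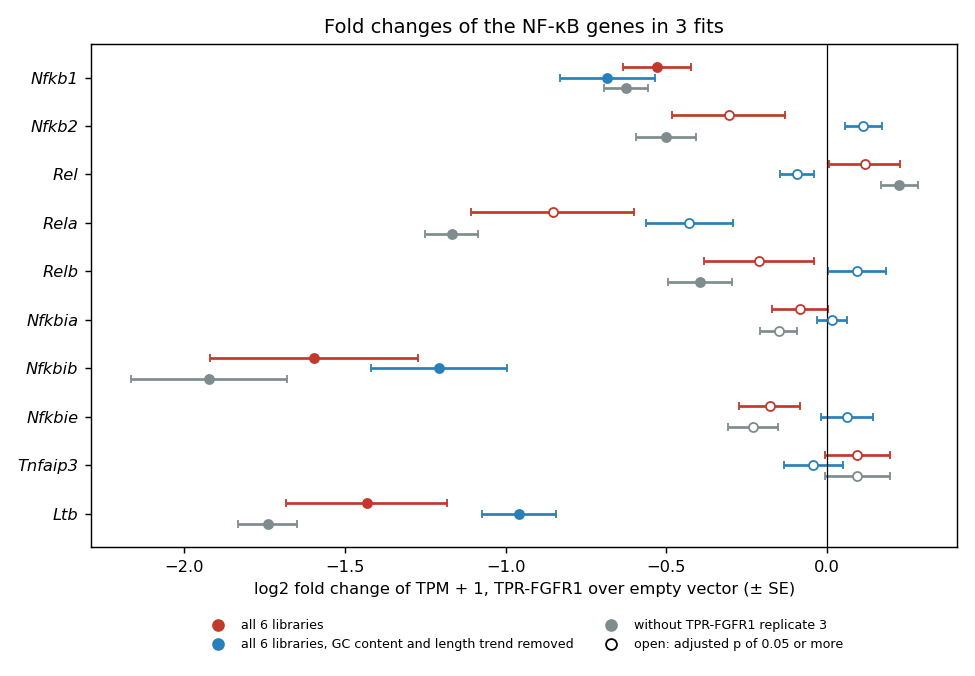
Log2 fold change of TPM + 1 for each of the 10 genes, TPR-FGFR1 over empty vector, with all libraries, after correction for GC content and length, and without TPR-FGFR1 replicate 3; bars are ± SE and open symbols mark an adjusted p of 0.05 or more. Ltb, Nfkbib, Nfkb1 and Rela lie below 0 in all 3, while the other 6 genes lie on the other side of 0 after the correction.

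The make-up of the subunit mRNA pool is a description, without a test. It uses uncorrected TPM, in which the TPR-FGFR1 libraries other than replicate 3 stood apart in base composition. The GC content is 42.5% for Rel, 56.8% for Relb and 59.4% for Rela, and its part in the shares was not tested. The TPM levels of 43.4% of all tested genes did not overlap between the groups, and no such background was computed for shares. The summed TPM of the 5 subunit genes was 169, 150 and 219 in TPR-FGFR1 cells, against 245, 255 and 249 in empty vector cells. Nfkb1 made up 46.2 ± 3.09% of that sum in TPR-FGFR1 cells and 47.5 ± 1.35% in empty vector cells (SD, n = 3 each), so its share overlapped between the groups. The share of Rela was 16.5, 15.7 and 22.9% in TPR-FGFR1 cells, against 23.2, 23.9 and 23.6% in empty vector cells. The share of Rel was 8.98, 10.3 and 5.49% in TPR-FGFR1 cells, against 5.18, 5.19 and 5.23% in empty vector cells. For both genes the shares did not overlap, and TPR-FGFR1 replicate 3 lay next to the empty vector libraries. The share of Relb was 5.75, 5.46 and 6.18% in TPR-FGFR1 cells, against 4.59, 5.08 and 4.83% in empty vector cells. It did not overlap either, and there TPR-FGFR1 replicate 3 was the farthest from the empty vector libraries. The shares of a library add up to the whole, so a share can be higher where the gene's own TPM is not. The TPM of Relb lay below every empty vector value in TPR-FGFR1 replicates 1 and 2 and above them in replicate 3. The TPM of Rel lay above every empty vector value in TPR-FGFR1 replicates 1 and 2 and below them in replicate 3.

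**Figure D3:**
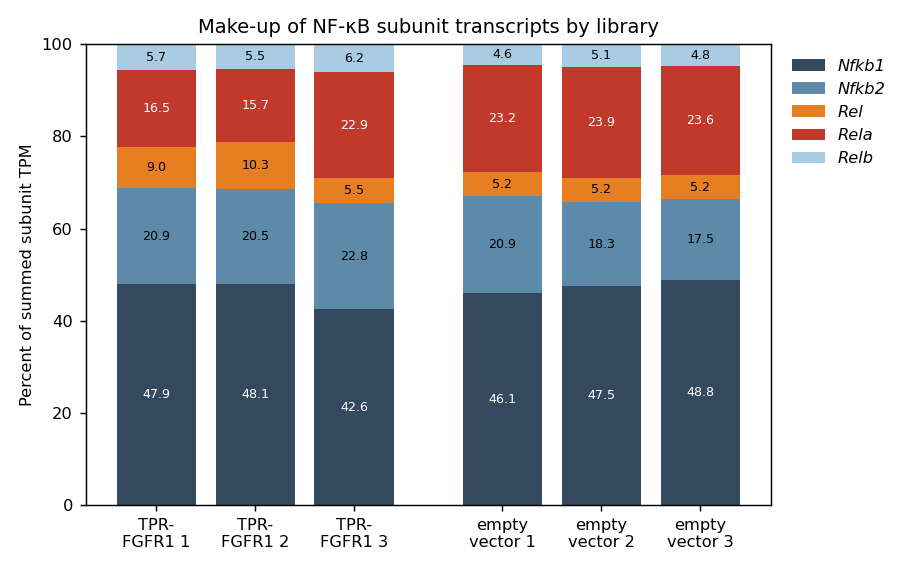
Share of each of the 5 subunit genes in their summed TPM, as a percent, for the 3 TPR-FGFR1 libraries and then the 3 empty vector libraries. TPR-FGFR1 replicates 1 and 2 have the smallest Rela shares (16.5 and 15.7%) and the largest Rel shares (8.98 and 10.3%).

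Among the inhibitors, Nfkbib changed. It encodes IκBβ, which binds dimers containing p65 or c-Rel, and stood at 2.40, 2.06 and 5.38 TPM in TPR-FGFR1 cells, against 16.1, 9.03 and 9.72 TPM in empty vector cells. The groups did not overlap, and empty vector replicate 1 was well above its 2 companions. The mean was 3.28 ± 1.83 TPM in TPR-FGFR1 cells and 11.6 ± 3.89 TPM in empty vector cells (SD, n = 3 each). Nfkbib thus had a log2 fold change of -1.60 with an SE of 0.323 (limma adjusted p = 0.0207; exact permutation p = 0.1), and -1.21 after the correction (limma adjusted p = 0.00965) at a GC content of 58.8%. The call held without TPR-FGFR1 replicate 3 (limma adjusted p = 0.00235) and was lost without any other library, with adjusted p between 0.0598 and 0.0816. It was also lost with no filter on low values (0.0655).

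Nfkbia encodes IκBα, the inhibitor that NF-κB itself induces as rapid feedback, and was by far the most abundant of the inhibitors. It had 101, 90.9 and 110 TPM in TPR-FGFR1 cells, against 108, 106 and 104 TPM in empty vector cells. The groups overlapped, with TPR-FGFR1 values on both sides of the empty vector values. The log2 fold change was -0.08 (95% interval -0.29 to 0.12, limma adjusted p = 0.509), and 0.02 after the correction. Nfkbie encodes IκBε and had 9.66, 9.96 and 11.03 TPM in TPR-FGFR1 cells, against 12.4, 10.8 and 11.9 TPM in empty vector cells. Its groups overlapped in 1 value, and the log2 fold change of -0.18 (limma adjusted p = 0.203) turned to 0.06 after the correction. Tnfaip3 encodes A20, a ubiquitin-editing enzyme that ends signalling upstream of the kinase complex. It had 6.50, 7.73 and 7.11 TPM in TPR-FGFR1 cells and 6.15, 6.81 and 6.80 TPM in empty vector cells, which overlapped. Its log2 fold change was 0.10 (95% interval -0.15 to 0.34, limma adjusted p = 0.513), and -0.04 after the correction.

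The 3 IκB genes Nfkbia, Nfkbib and Nfkbie together summed to 113, 103 and 127 TPM in TPR-FGFR1 cells, against 137, 126 and 126 TPM in empty vector cells. Divided by the summed subunit TPM, this gave 0.666, 0.686 and 0.576 in TPR-FGFR1 cells, against 0.557, 0.495 and 0.506 in empty vector cells. The ratio did not overlap between the groups, with TPR-FGFR1 replicate 3 closest to the empty vector libraries. Like the shares, the ratio uses uncorrected TPM. These are mRNA levels, and protein, its location and its activity were not measured.

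By the distance between centred log2(TPM + 1) profiles over the 6 libraries, among 8636 protein-coding genes, the gene most like Ltb was Shmt2, the mitochondrial serine hydroxymethyltransferase, with a root mean square difference of 0.053. It had 46.8, 41.5 and 82.7 TPM in TPR-FGFR1 cells and 157, 141 and 137 TPM in empty vector cells. Angptl6 (0.109), Tcof1 (0.122), Atf6b (0.139) and Pi16 (0.14) followed. The nearest to Nfkb1 were the amino acid transporter gene Slc7a5 (0.0114), Cd74 (0.0201) and Gmppa (0.0241), although their corrected log2 fold changes were -0.25 to -0.27 where that of Nfkb1 was -0.68. The nearest to Nfkbib were Trmt61a (0.149), Cebpe (0.152) and the immediate early gene Ier2 (0.162). These genes were picked for their likeness, so their values carry no test. The distances use uncorrected values. The genes nearest to Ltb and Nfkbib have a GC content of 54.93 to 63.15%, and its part in the likeness was not tested.

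Around these genes, 91 others of the pathway were listed by role in 7 lists, and 71 were tested. Of these, 10 fell and 3 rose, against 10% lower and 10.2% higher of all tested genes. Upper quartile scaling gave 7 rises (13% of all genes higher), quantile normalization 6 (13.6%) and median-of-ratios scaling 5 (11.3%). After the GC and length correction 13 fell and 9 rose (16.1% and 13.3% of all genes), and without TPR-FGFR1 replicate 3 there were 22 falls and 19 rises (23.4% and 26.3%). Of the 13 genes that passed, only Pdlim2 also passed with each of the 6 libraries left out in turn. The median log2 fold change was -0.02 over the 71 genes, against 0.02 over all tested genes.

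**Figure D4:**
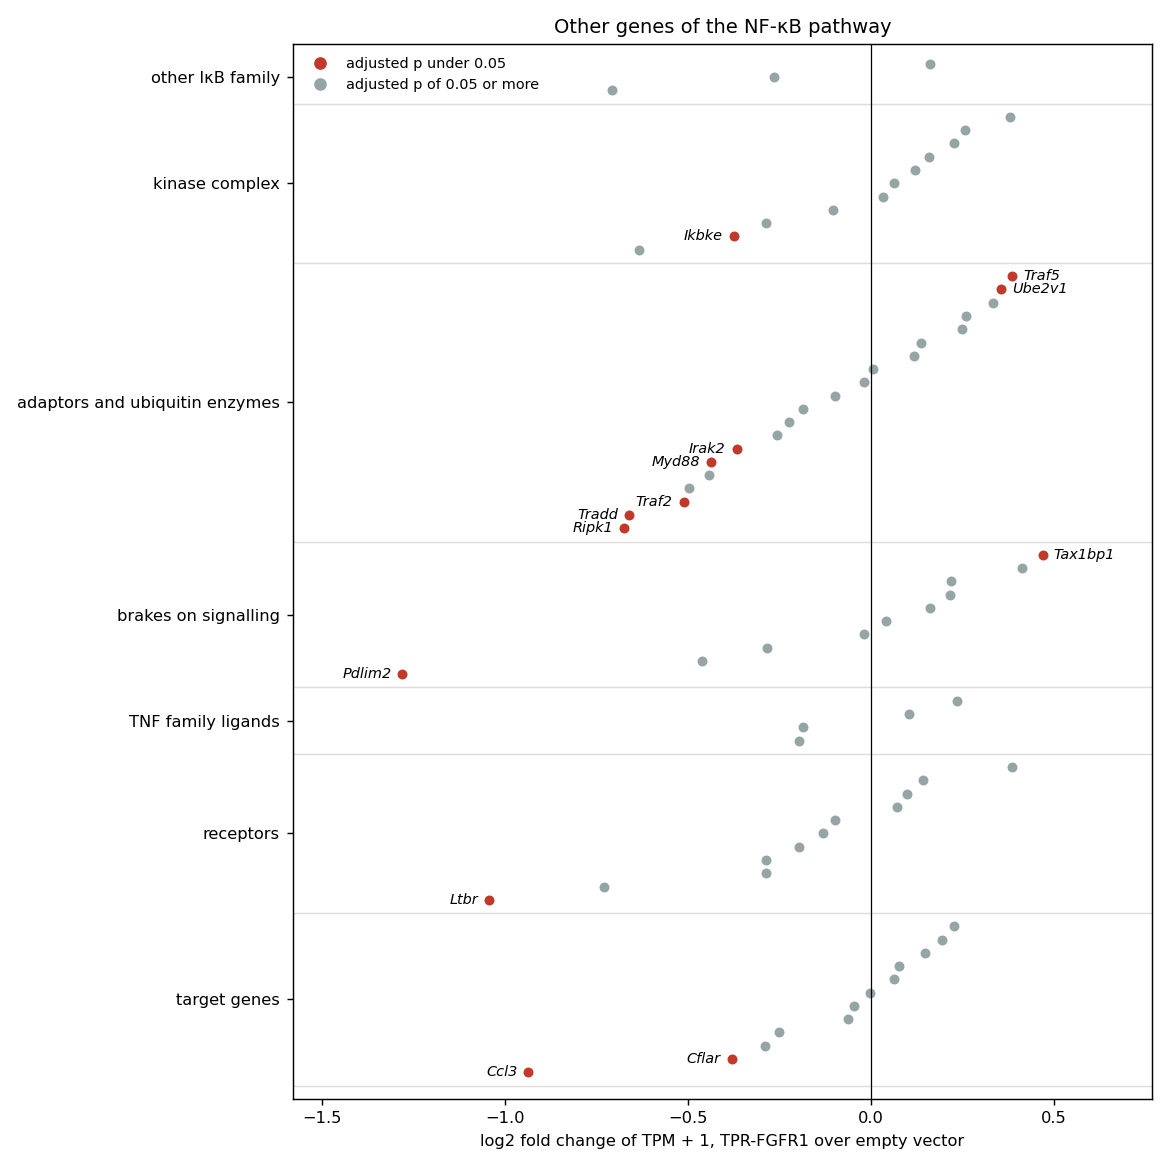
Log2 fold change of TPM + 1, TPR-FGFR1 over empty vector, of the 71 tested pathway genes in 7 lists; red marks an adjusted p under 0.05. The falls of Pdlim2, Ltbr and Ccl3 are the largest, and the 3 rises are Traf5, Ube2v1 and Tax1bp1.

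On the ligand and receptor side, none of the 4 tested TNF family ligands of 8 listed passed. Of all tested genes 10% were lower and 10.2% higher, and of the 11 tested receptors of 15 listed 1 passed. That one was Ltbr, the receptor for the lymphotoxin heterotrimer that contains the Ltb product. It had 6.84, 5.6 and 10.2 TPM in TPR-FGFR1 cells, against 14.1, 15.2 and 19.7 TPM in empty vector cells. The groups did not overlap, so ligand and receptor mRNA were both lower in every TPR-FGFR1 library. Ltbr fell by 1.04 on the log2 scale with an SE of 0.213 (limma adjusted p = 0.0215), and -0.58 after the correction (limma adjusted p = 0.0391). The call was lost without any library other than TPR-FGFR1 replicate 3, with adjusted p up to 0.083. Tnf, the neighbouring ligand gene, averaged 12.8 TPM in TPR-FGFR1 cells and 14.7 TPM in empty vector cells and did not pass (limma adjusted p = 0.205).

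Between receptor and kinase complex, 5 of 20 tested adaptors and ubiquitin enzymes fell and 2 rose, beside 10% and 10.2% of all tested genes. Ripk1, a kinase and scaffold of the TNF receptor complex, averaged 13.4 ± 2.22 TPM in TPR-FGFR1 cells and 21.8 ± 1.02 TPM in empty vector cells (SD, n = 3 each; log2 fold change -0.68, limma adjusted p = 0.0172). Myd88, the adaptor of Toll-like and interleukin-1 receptors, averaged 24.1 ± 0.723 TPM in TPR-FGFR1 cells and 33.0 ± 0.386 TPM in empty vector cells (SD, n = 3 each; -0.44, limma adjusted p = 0.0119). The TNF receptor adaptors Tradd (-0.66) and Traf2 (-0.51) also fell, as did Irak2 (-0.37), which lies outside the naming rule. The rises were Traf5 (0.39), another receptor adaptor, and Ube2v1 (0.36), a ubiquitin-conjugating cofactor. After the correction Tradd (limma adjusted p = 0.0501) and Traf5 (0.255) did not pass. Ripk1 did not pass without any 1 of the empty vector libraries (adjusted p up to 0.0734), nor Myd88 without any 1 of them or TPR-FGFR1 replicate 1 (up to 0.0699). The other 5 passed with TPR-FGFR1 replicate 3 left out and with no other library left out. The catalytic partner of Ube2v1, Ube2n, did not pass. The kinase complex list also held kinases and adaptors around the complex. Of its 11 tested genes only Ikbke fell (-0.37, limma adjusted p = 0.0464), and none rose. The adjusted p was up to 0.157 with a library other than TPR-FGFR1 replicate 3 left out. Ikbke encodes a related kinase, and no subunit gene of the complex that marks IκB proteins passed (Chuk, limma adjusted p = 0.0759). None of the 3 tested genes of the other IκB family list passed.

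Of the 10 tested brakes on signalling, Pdlim2 fell and Tax1bp1 rose, beside 10% lower and 10.2% higher of all tested genes. Pdlim2 encodes a nuclear ubiquitin ligase that promotes degradation of p65. It stood at 5.84, 5.61 and 8.14 TPM in TPR-FGFR1 cells, against 18.2, 17.3 and 15.9 TPM in empty vector cells. The groups were far apart, and Pdlim2 fell by 1.28 on the log2 scale with an SE of 0.142 (limma adjusted p = 0.00651). It passed under all 22 alternatives, with log2 fold changes of -1.43 to -0.95. Tax1bp1, an adaptor of A20, averaged 771 ± 113 TPM in TPR-FGFR1 cells and 553 ± 28.6 TPM in empty vector cells (SD, n = 3 each; 0.47, limma adjusted p = 0.04; up to 0.139 with a library other than TPR-FGFR1 replicate 3 left out).

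Of the 12 tested target genes of 21 listed, 2 fell and 10 did not pass, beside 10% of all tested genes lower. The chemokine gene Ccl3 averaged 1.71 ± 0.253 TPM in TPR-FGFR1 cells and 4.18 ± 0.49 TPM in empty vector cells (SD, n = 3 each; log2 fold change -0.94, limma adjusted p = 0.0107). Cflar, which encodes the caspase-8 inhibitor c-FLIP, averaged 38.2 ± 2.31 TPM in TPR-FGFR1 cells and 50.1 ± 2.53 TPM in empty vector cells (SD, n = 3 each; -0.38, limma adjusted p = 0.0237). Ccl3 was lost without TPR-FGFR1 replicate 1 or empty vector replicate 1 or 2 (adjusted p up to 0.0555), and Cflar without any library other than TPR-FGFR1 replicate 3 (up to 0.105). The abundant genes Bcl2l1, which encodes the survival factor Bcl-xL, and Ier3 were among those that did not pass. Bcl2l1 had a log2 fold change of 0.19 (limma adjusted p = 0.126) and passed as a rise after the correction, at 0.45 (limma adjusted p = 0.0105). Ier3 had a log2 fold change of -0.25 (limma adjusted p = 0.275) and passed as a fall without TPR-FGFR1 replicate 3, at -0.42 (limma adjusted p = 0.0157).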

How the data were processed

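Messenger RNA of 6 Ba/F3 libraries was measured from 1 µg of RNA with a stranded kit, per the labels' protocols. The authors deposited TPM values for 57010 Ensembl IDs; fastp, HISAT2, StringTie and GRCm39 come from the submitters' processing notes, with no versions or annotation release. Read depth cannot be recovered from TPM, so it is unknown and no counting interval was computed. Columns were matched to samples by name, and 0 columns belonged to no sample. Symbols, GC content and length came from GENCODE M21 (GRCm38), matched by ID (91.3% of IDs).

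Values were analysed as log2(TPM + 1), which understates changes of low genes, for genes averaging 1 TPM or more. The comparison used limma 3.58.1 (R 4.3.3; eBayes with trend, group as the only term, Benjamini-Hochberg over 12862 genes). The correction removed from each library a spline trend (4 degrees of freedom) over GC content and length, for 12541 genes. In simulated data of 12862 genes with this comparison's design, 52% of genes changed 1.5-fold and 86% of those changed 2-fold were recovered. Changed genes were few and drawn from those averaging at least 5 TPM, and the noise held no GC trend. Recovery in the real comparison, and for genes under 5 TPM, may thus differ. Promoter sequences are from RefSeq (GRCm38.p6), for names and letters only; the files use GRCm39.

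The members and lists were chosen with earlier results of these data known. Named are all 10 members, per list the genes that passed (the 6 of smallest adjusted p where there were more) with up to 2 abundant ones that did not, and the nearest profiles: 5 for Ltb and 3 for each other member that passed, at a mean of at least 5 TPM. Alternatives were other pseudocounts (0.1 and 5), filters, scalings, eBayes settings, library weights, a replicate block and leaving out each library.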

Additional observations from a re-analysis of the deposited data

How the results depend on the processing

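Against 3 of the 10 genes lower and 0 higher with all libraries, library weights gave 7 and 1. That fit (arrayWeights) stopped before reaching its tolerance, and in it 32.2% of all genes were lower and 39.9% higher. Leaving out each library gave 0 to 6 lower and 0 to 1 higher. In those fits 0.848% to 23.4% of all genes were lower and 0.864% to 26.3% higher. A filter at 5 TPM (13.2% of all genes lower) and protein-coding genes alone (14.7%) each gave 4 lower, with Rela. Against 10 other pathway genes lower and 3 higher, no filter gave 6 and 0 (2.01% and 2.37% of all genes) and library weights 28 and 24. The replicate block gave 3 and 0 (3.27% and 2.67% of all genes). Leaving out each library gave 1 to 22 and 0 to 19 (0.848% to 23.4% and 0.864% to 26.3% of all genes). The number higher was 6 with a filter at 5 TPM (13% of all genes), 6 with quantile normalization (13.6%) and 5 with median-of-ratios scaling (11.3%). It was 7 with upper quartile scaling (13%) and 6 over protein-coding genes (12.9%). After the GC and length correction it was 9 (13.3%), and 11 with TPR-FGFR1 replicate 3 also left out (15.9%). The correction with the block gave 6 lower (8.06% of all genes). With the correction, with or without the block, the log2 fold changes of genes that had not passed changed sign: Nfkb2 0.113, Rel -0.0929, Relb 0.0926, Nfkbia 0.0165, Nfkbie 0.0621, Tnfaip3 -0.0421, Ube2n -0.0556 and Tlr4 -0.106. With TPR-FGFR1 replicate 3 also left out they were 0.082, -0.074, 0.0394, 0.0133, 0.119, -0.103, -0.0534 and -0.0941 in the same order. Library weights gave -0.0312 for Tnfaip3 and 0.0845 for Birc3, which was 0.0119 without mitochondrial genes and -0.0807 to 0.101 with each library left out. The cause of these changes was not tested. Deviations from the group means of same-numbered libraries correlated at -0.19, -0.07 and -0.15, which gave no sign of pairing by replicate number. The deviations were not corrected for base composition, so they cannot settle whether the libraries were paired. With the replicate block the log2 fold changes were as before, and Nfkb1 (adjusted p = 0.0555) no longer passed while Nfkbib (0.0433) and Ltb (0.039) did. Over the 22 alternatives Ltb passed in 18 and Nfkb1 and Nfkbib in 16 each. Depth is unknown, so its limit on low genes such as Nfkbib could not be computed.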

Other observations

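The neighbours of Ltb and Nfkbib in RefSeq's gene order (GRCm38.p6) were looked up after the values were seen, and are described without a test. Ltb lies between Lst1 and Tnf. Lst1 averaged 61.4 TPM in TPR-FGFR1 cells and 67.7 TPM in empty vector cells, and Tnf 12.8 TPM in TPR-FGFR1 cells and 14.7 TPM in empty vector cells, against 19.8 and 52.6 TPM for Ltb in the same order. Further out, Nfkbil1 averaged 2.59 TPM in TPR-FGFR1 cells and 4.66 TPM in empty vector cells, Prrc2a 53.5 TPM in TPR-FGFR1 cells and 80.4 TPM in empty vector cells, and Aif1 4.06 TPM in TPR-FGFR1 cells and 3.98 TPM in empty vector cells. Lta, which encodes the other chain of the lymphotoxin heterotrimer, stood at 0.34 to 0.48 TPM in TPR-FGFR1 cells and 0.23 to 0.51 TPM in empty vector cells. Next to Nfkbib, Sirt2 averaged 26.0 TPM in TPR-FGFR1 cells and 31.8 TPM in empty vector cells, and Sars2, a mitochondrial seryl-tRNA synthetase gene at the second place on the other side, 1.28 TPM in TPR-FGFR1 cells and 3.21 TPM in empty vector cells. Rinl averaged 23.1 TPM in TPR-FGFR1 cells and 27.1 TPM in empty vector cells, Hnrnpl 192 TPM in TPR-FGFR1 cells and 181 TPM in empty vector cells, and Mrps12 10.1 TPM in TPR-FGFR1 cells and 11.9 TPM in empty vector cells. Ccer2 stayed at or under 0.32 TPM in all 6 libraries.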
